A study of Mus musculus with 23 samples.

Results

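The genes that encode the chains of collagen were followed through 23 B16-F1 melanoma tumors treated with vehicle, pentoxifylline (PTX), norcantharidin (NCTD) or both (MIX), given into the peritoneum (IP) or into the tumor (IT). The members were all protein-coding genes of the deposited table with a symbol of the form Col, a type number, a and a chain number, which gave 44 of the 56748 genes. They were grouped by collagen type as 11 fibrillar chains, 6 basement membrane chains (all of type IV) and 27 other chains. B16-F1, a mouse melanoma line, had been implanted under the skin of the flank of DBA/2J mice aged 6 to 8 weeks, a strain other than the one the line came from. CTRL_IP received saline, CTRL_IT received DMSO, PTX was given at 60 mg/kg, NCTD at 3 mg/kg, and MIX combined both doses. Each IP group held 2 tumors, PTX_IT held 3, and CTRL_IT, NCTD_IT and MIX_IT held 4 each. All groups carried the same implanted line in the same host strain, and the IT and IP tumors differed in route and in the vehicle of their controls. The labels enter the route under the heading of batch, so these cannot be told apart.

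Collagens are triple helices of 3 chains. The fibrillar types assemble into the fibers of the interstitial matrix and are made mostly by fibroblasts, with Col1a1 and Col1a2 forming type I, the main fibril collagen of skin. Type IV forms the sheet-like network of basement membranes under endothelium and epithelium. The other chains include the beaded-filament type VI, the fibril-associated types that decorate fibrils, the short-chain networks, the multiplexins cleaved to antiangiogenic fragments, and the transmembrane collagens. In a tumor, collagens make much of the stroma, and many enzymes that hydroxylate, fold, trim, crosslink and degrade the chains act on their protein.

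The tumors held between 2861578 and 6702374 counts each, so a floor of 3 counts corresponded to between 0.449 and 1.04 CPM, the count scaled to a common library size. The summed level of the melanocytic marker genes lay between 14802 and 36833 CPM, which marks melanocytic tissue but cannot tell B16-F1 from another melanoma line. Tumor 23 of MIX_IT stood apart, with the lowest melanocytic sum and the highest level of 19 of the 44 members. Comparisons of members that rest on it are therefore given with and without it for the main test below, whereas the fits with other settings include it. The transcript Xist, which is made from the inactive X chromosome of female cells, was between 5.19 and 13.6 CPM in the NCTD_IT tumors and between 1.28 and 11.6 CPM in the PTX_IT tumors, against at most 0.566 CPM in CTRL_IT and 0 in MIX_IT. The Y-linked Ddx3y was at or below 0.294 CPM in NCTD_IT and PTX_IT and between 1.03 and 15.5 CPM in CTRL_IT and MIX_IT. In the IP tumors Xist was at 8.26 CPM in 1 CTRL_IP tumor and at 0 in the other 7. These transcripts of the sex chromosomes thus moved with the groups, although the series describes its groups as matched for sex, and fits with Xist as a covariate are given beside the comparisons of IT tumors.

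Where the chains lie in the genome bears on how their reads can be told apart. On GRCm39, the build of the deposited coordinates, Col1a1 spans 94827050 to 94843868 on chromosome 11 (plus strand) and Col1a2 spans 4504814 to 4541544 on chromosome 6 (plus strand), so that the chains of type I come from separate chromosomes. Col4a1, at 11248423 to 11362826 on the minus strand of chromosome 8, and Col4a2, at 11362805 to 11499287 on the plus strand, start head to head and overlap by 22 bases. Col4a4 and Col4a3 also start head to head, 71 bases apart on chromosome 1, and Col4a6 and Col4a5 do so 1308 bases apart on the X chromosome. Col3a1, at 45350698 to 45388866 on the plus strand of chromosome 1, and Col5a2, at 45413481 to 45542442 on the minus strand, end tail to tail 24614 bases apart. Reads over the shared bases of Col4a1 and Col4a2 are uncertain, since the strand setting of the counting is not given in the sources used here. A 3′ library reads mostly transcript ends, which for head-to-head genes lie away from the shared start.

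Promoter sequence was read for the members whose levels spread most between tumors. RefSeq windows (build GRCm38.p6) matched 35 of the 44 members, with 38 windows. Col1a1, Col2a1, Col4a3, Col5a2, Col9a3, Col12a1, Col14a1, Col22a1 and Col26a1 had no window. Shown are the 250 bases before the start of Col1a2, Col3a1 and Col5a1, abundant fibrillar chains, and of Col6a3, a type VI chain with a comparable spread. They lie on the plus strand at chr6:4505368-4505617, chr1:45311288-45311537 and chr2:27886175-27886424, and on the minus strand at chr1:90843972-90844221. Capitals mark matches on either strand to 3 short motifs. The TATA box was searched as TATAAA. The CCAAT box was searched by the letters of its name. The GC box was searched as GGGCGG, and no matches overlap in these windows.

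Col1a2: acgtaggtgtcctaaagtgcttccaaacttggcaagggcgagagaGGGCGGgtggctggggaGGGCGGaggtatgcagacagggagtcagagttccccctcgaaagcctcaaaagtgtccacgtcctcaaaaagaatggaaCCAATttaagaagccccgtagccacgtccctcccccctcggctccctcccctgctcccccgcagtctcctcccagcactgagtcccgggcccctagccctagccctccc
Col3a1: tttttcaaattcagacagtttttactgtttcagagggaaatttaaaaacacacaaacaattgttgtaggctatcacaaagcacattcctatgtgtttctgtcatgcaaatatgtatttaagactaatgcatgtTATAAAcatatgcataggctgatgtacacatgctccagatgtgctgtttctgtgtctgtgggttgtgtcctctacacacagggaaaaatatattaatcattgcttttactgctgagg
Col5a1: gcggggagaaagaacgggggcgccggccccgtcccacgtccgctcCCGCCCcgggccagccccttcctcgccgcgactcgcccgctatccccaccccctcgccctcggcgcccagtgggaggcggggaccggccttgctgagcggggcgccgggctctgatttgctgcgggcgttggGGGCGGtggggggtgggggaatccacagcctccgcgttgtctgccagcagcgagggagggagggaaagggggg
Col6a3: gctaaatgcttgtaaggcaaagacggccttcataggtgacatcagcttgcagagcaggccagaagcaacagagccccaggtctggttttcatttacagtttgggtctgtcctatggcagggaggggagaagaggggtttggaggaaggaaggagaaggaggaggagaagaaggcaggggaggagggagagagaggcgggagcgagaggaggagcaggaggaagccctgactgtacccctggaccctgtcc

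The Col1a2 window held GC boxes 205 and 188 bases and a CCAAT box 109 bases before the start, counted from the first base of each motif. The Col3a1 window held a TATA box 117 bases before the start, the Col5a1 window held GC boxes 205 and 73 bases before it, and the Col6a3 window held none of the 3 motifs. Over 32851 RefSeq windows of the same length, 12.4% held the TATA box, 33.8% the CCAAT box and 32.7% the GC box. Among the 38 windows of members, 5 held the TATA box (13.2%), 13 the CCAAT box (34.2%) and 22 the GC box (57.9%). These matches are letters in a window and were not tied to binding or to the levels below.

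Pooled over the tumors, most collagen reads came from fibrillar chains. Summed over all tumors, the fibrillar chains took 74.1% of the 149025 counts of the members, type IV took 11.5% and the other chains took 14.4%. These pooled shares are weighted toward tumor 23 of MIX_IT. The fibrillar share per tumor had a median of 69.1% and ran from 38.2% to 85.7%, the highest in tumor 23. Per kilobase of the gene model, the highest mean levels were 87.1 CPM for Col1a1, 22.6 CPM for Col1a2, 15.3 CPM for Col4a1, 14.96 CPM for Col3a1 and 7.52 CPM for Col16a1, a fibril-associated chain. A 3′ library reads mainly the end of each transcript, so neither the CPM nor the CPM per kilobase counts molecules. Of the 44 members, 18 were above the floor of 3 counts in every tumor and Col6a5 and Col26a1 were above it in none. Another 15 members had a mean below 1 CPM but passed the floor in at least 1 tumor, among them the cartilage chains Col2a1, Col11a1, Col11a2 and Col9a2. The keratinocyte-anchoring chains were low, with means of 1.79 CPM for Col7a1 and 0.42 CPM for Col17a1. The members with a mean of at least 20 CPM, Col1a1, Col1a2, Col3a1, Col4a1, Col6a3, Col16a1, Col5a2, Col4a2, Col5a1, Col15a1 and Col5a3, are given in full below. In bulk tumors, fewer collagen-producing cells and less collagen RNA per cell cannot be told apart.

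**Figure D1:**
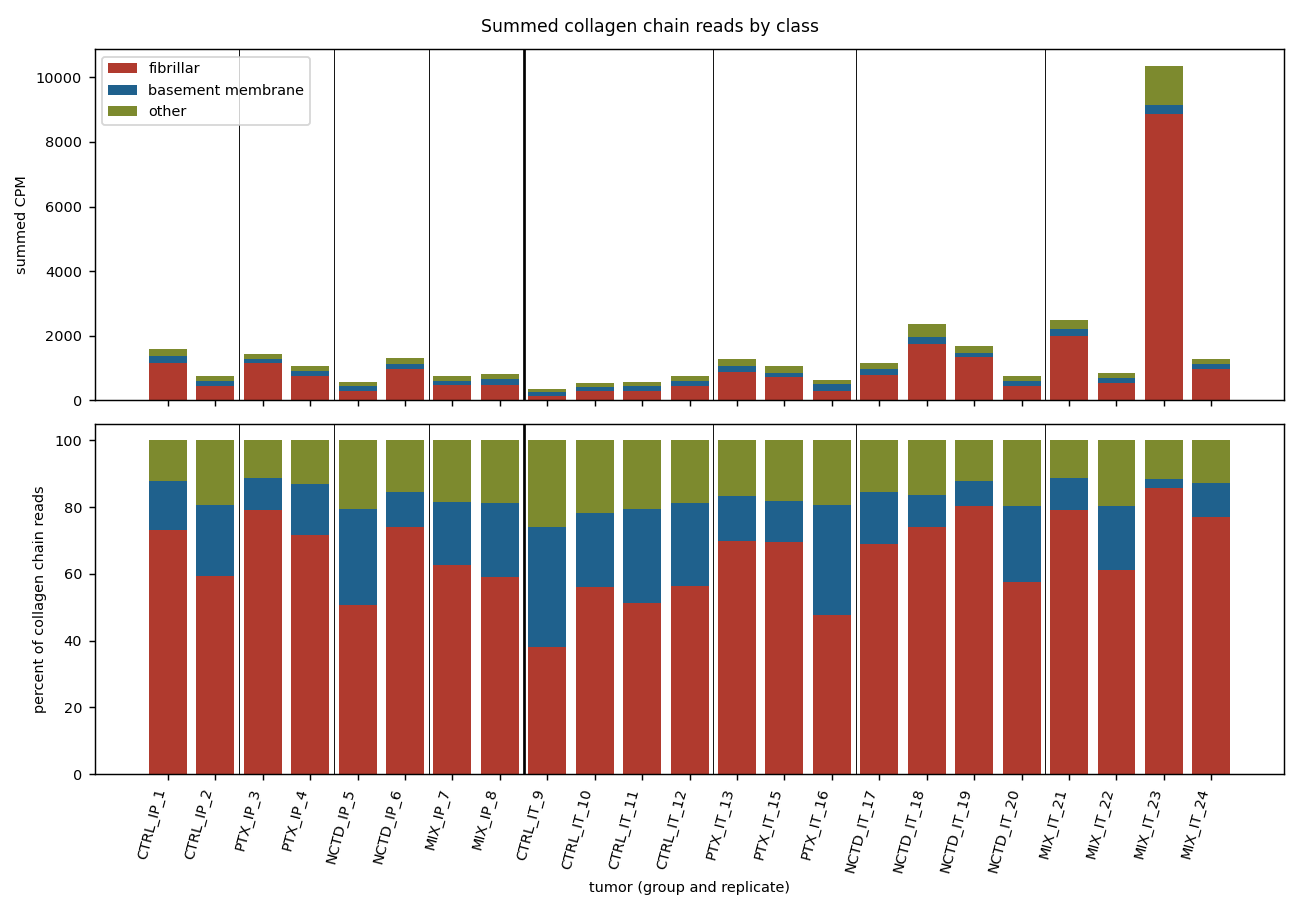
Summed CPM of the fibrillar, basement membrane and other collagen chain genes in each of the 23 tumors (top) and their percent of the collagen chain reads (bottom); vertical lines separate the groups and the thick line separates IP from IT. Tumor 23 of MIX_IT reached 10352 CPM against 353 CPM in tumor 9 of CTRL_IT, while the basement membrane sum stayed between 116.6 and 272.3 CPM.

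The summed collagen level was lowest in CTRL_IT and widest in MIX_IT. It was 546 ± 162 CPM in CTRL_IT (mean ± SD, n = 4), 974 ± 332 CPM in PTX_IT (n = 3), 1475 ± 697 CPM in NCTD_IT (n = 4) and 3740.0 ± 4463 CPM in MIX_IT (n = 4). The MIX_IT tumors were at 2491, 846, 10352 and 1270.4 CPM, so the SD there exceeded the mean through tumor 23, and all 4 were above the highest CTRL_IT tumor at 748 CPM. Among the IP tumors, the range was 750.2 to 1576 CPM in CTRL_IP, 1055 to 1437 CPM in PTX_IP, 558 to 1313 CPM in NCTD_IP and 746 to 798 CPM in MIX_IP. CTRL_IP overlapped each treated group, whereas both MIX_IP tumors lay below both PTX_IP tumors. The share of fibrillar chains in the collagen reads ran from 38.2% to 56.4% in CTRL_IT and from 61.2% to 85.7% in MIX_IT, which did not overlap. In NCTD_IT it ran from 57.7% to 80.3%, also above CTRL_IT, and in PTX_IT from 47.8% to 69.9%, which overlapped it. No test was run on these sums and shares.

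The basement membrane sum varied far less than the fibrillar sum. Over the 23 tumors it ran from 116.6 to 272.3 CPM, against 134.9 to 8869 CPM for the fibrillar chains and 91.7 to 1211 CPM for the other chains. Between the highest and the lowest tumor, Col4a1 differed 2.76-fold and Col4a2 differed 2.84-fold. By contrast, the ratio was 148-fold for Col1a2, 117-fold for Col6a3 and 70.2-fold for Col1a1. Col16a1 (4.43-fold), Col15a1 (4.93-fold) and Col5a3 (5.24-fold) lay nearer to the type IV chains.

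**Figure D2:**
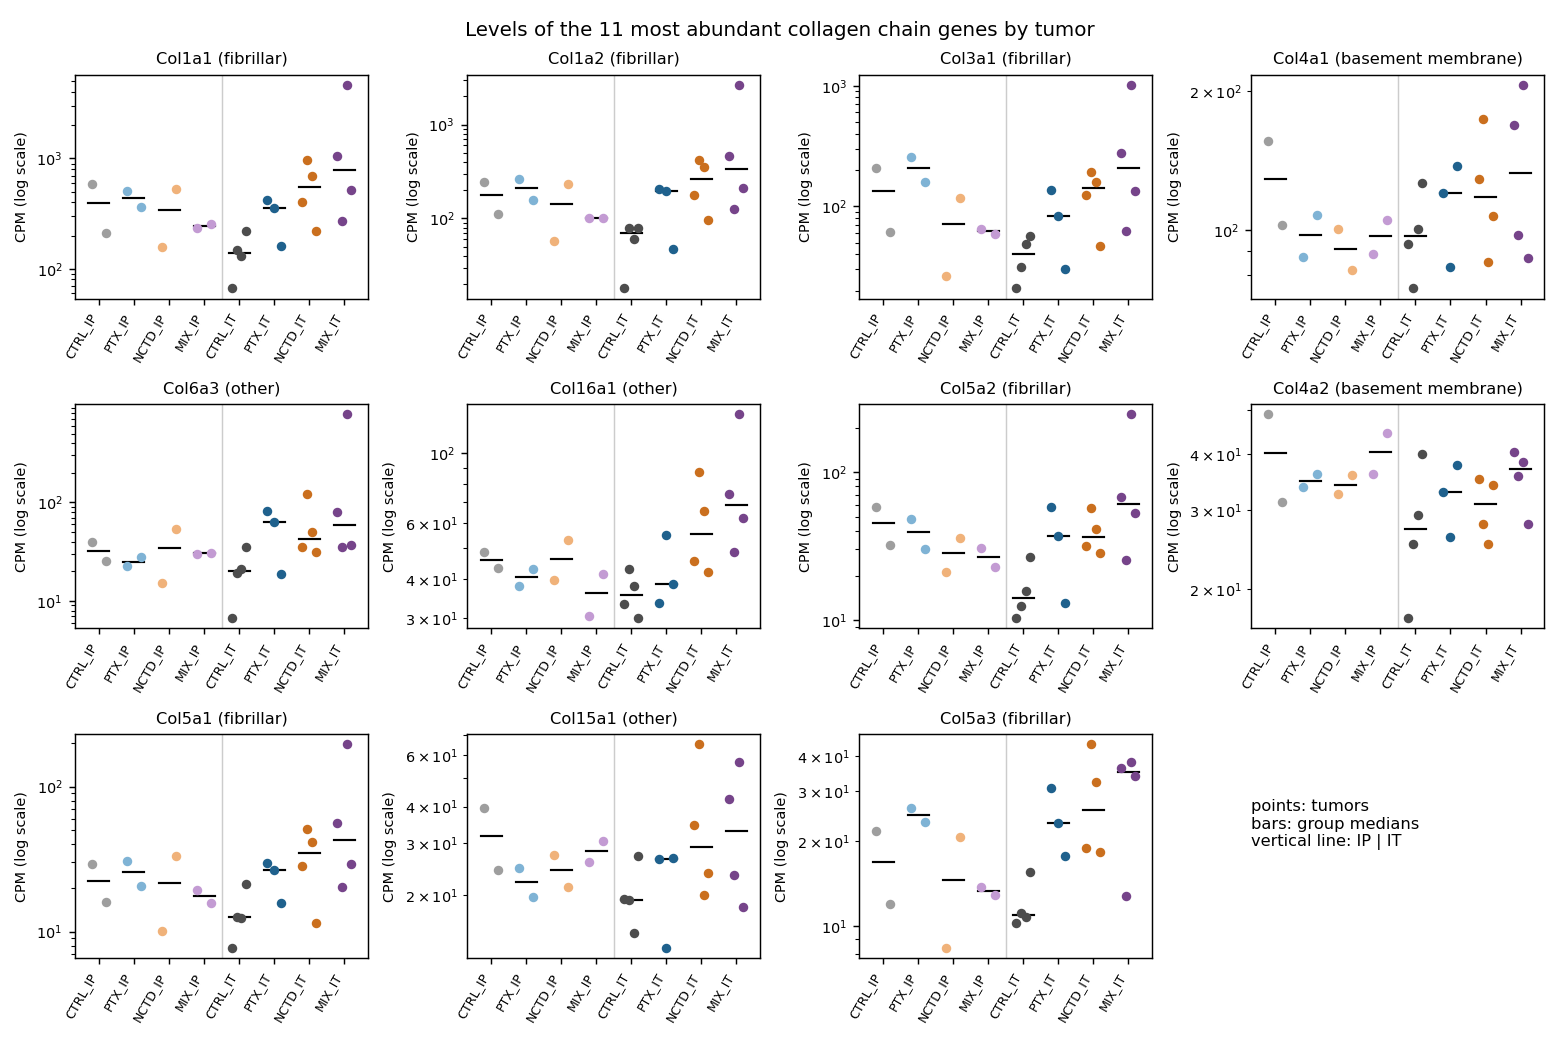
CPM on a log axis of the 11 collagen chain genes with a mean of at least 20 CPM, with 1 point per tumor, the group median as a bar and a line between the IP and the IT groups. Col1a1 lay between 66.4 and 219 CPM in CTRL_IT and between 271 and 4664 CPM in MIX_IT, whereas Col4a1 stayed between 74.7 and 207 CPM in every tumor.

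Col1a1, the main chain of type I collagen, was at 66.4, 148, 132 and 219 CPM in CTRL_IT and at 1053, 271, 4664 and 515 CPM in MIX_IT. The NCTD_IT tumors were at 405, 968, 700.1 and 222 CPM and the PTX_IT tumors at 423, 356 and 161 CPM. Every MIX_IT and NCTD_IT tumor was therefore above every CTRL_IT tumor, while the lowest PTX_IT tumor was within the CTRL_IT range. In the IP tumors Col1a1 was at 587 and 210.2 CPM in CTRL_IP, 511 and 364 CPM in PTX_IP, 157 and 531 CPM in NCTD_IP and 235 and 255 CPM in MIX_IP. The MIX_IP tumors lay inside the CTRL_IP range, and the CTRL_IP tumor at 587 CPM was above all CTRL_IT tumors.

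Col1a2, the partner chain of type I, was at 18.02, 79.3, 61.0 and 78.4 CPM in CTRL_IT, 178, 417, 354 and 97.3 CPM in NCTD_IT and 464, 125, 2659 and 209 CPM in MIX_IT. The order of its tumors was close to that of Col1a1, and tumor 23 of MIX_IT was 5.73 times the next highest tumor of the series. The ratio of Col1a1 to Col1a2 reads had a median of 2.28 over the 23 tumors and ran from 1.75 to 3.69. Col3a1, the chain of type III that accompanies type I in loose tissue, was at 20.9, 31.1, 49.1 and 56.9 CPM in CTRL_IT and at 279, 61.8, 1019 and 135 CPM in MIX_IT. Its lowest MIX_IT tumor was just above its highest CTRL_IT tumor, and its NCTD_IT tumors, at 124, 194, 159 and 46.4 CPM, overlapped CTRL_IT through tumor 20.

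Type V chains nucleate fibrils and were lower. Col5a2 was at 10.3, 12.5, 15.6 and 26.9 CPM in CTRL_IT and at 68.3, 25.4, 245 and 52.8 CPM in MIX_IT, which overlapped through tumor 22 of MIX_IT. Col5a1 was at 7.72, 12.7, 12.3 and 21.2 CPM in CTRL_IT and 56.3, 20.3, 196 and 29.3 CPM in MIX_IT, with the same overlap. Col5a3 was at 10.3, 11.2, 10.8 and 15.6 CPM in CTRL_IT, 30.9, 23.2 and 17.7 CPM in PTX_IT, 18.95, 44.1, 32.5 and 18.4 CPM in NCTD_IT and 36.2, 12.8, 38.1 and 34.1 CPM in MIX_IT. It was the fibrillar chain whose PTX_IT and NCTD_IT tumors both lay wholly above CTRL_IT, and it was not highest in tumor 23. Col27a1, a minor fibrillar chain, was at 0, 0.219, 1.26 and 0.566 CPM in CTRL_IT and at 10.3, 0.624, 31.6 and 1.67 CPM in MIX_IT, so that its CTRL_IT level rested on few reads.

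Among the type IV chains, Col4a1 was at 93.2, 74.7, 101 and 126 CPM in CTRL_IT and at 169, 97.4, 207 and 86.9 CPM in MIX_IT, with overlapping tumors. Col4a2, its partner in the most widespread type IV network, was at 17.3, 25.2, 29.2 and 39.9 CPM in CTRL_IT and at 40.5, 35.7, 38.4 and 28.0 CPM in MIX_IT, also overlapping. The rarer chains Col4a4, Col4a5 and Col4a3 had means of 12.5, 6.53 and 1.67 CPM, and Col4a6 had a mean of 0.11 CPM and was above the floor in 2 tumors.

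Of the other chains, Col6a3, the longest chain of the type VI beaded filament, was at 6.69, 19.1, 21.2 and 35.6 CPM in CTRL_IT and at 80.7, 35.1, 780.4 and 37.0 CPM in MIX_IT. Tumors 22 and 24 of MIX_IT lay at the level of the highest CTRL_IT tumor, and tumors 21 and 23 above it. Col6a2, another type VI chain, was at 4.89, 8.11, 4.79 and 8.20 CPM in CTRL_IT, 6.09, 6.17, 11.4 and 5.87 CPM in NCTD_IT and 25.9, 11.9, 60.4 and 10.5 CPM in MIX_IT. All 4 MIX_IT tumors were above CTRL_IT, whereas NCTD_IT overlapped it. Col16a1 was at 33.2, 42.9, 37.8 and 30.0 CPM in CTRL_IT and at 74.3, 48.7, 133 and 62.3 CPM in MIX_IT, without overlap. Col15a1, a multiplexin of vessel and muscle basement membrane zones, was at 19.3, 19.3, 14.9 and 27.2 CPM in CTRL_IT and at 42.6, 23.4, 56.6 and 18.2 CPM in MIX_IT, with overlap. Col9a1, a chain best known from cartilage, had 18, 13, 10 and 12 reads in the CTRL_IT tumors and 2, 1, 1 and 1 reads in the NCTD_IT tumors. It was the member whose CTRL_IT tumors lay above those of PTX_IT, NCTD_IT and MIX_IT alike.

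**Figure D3:**
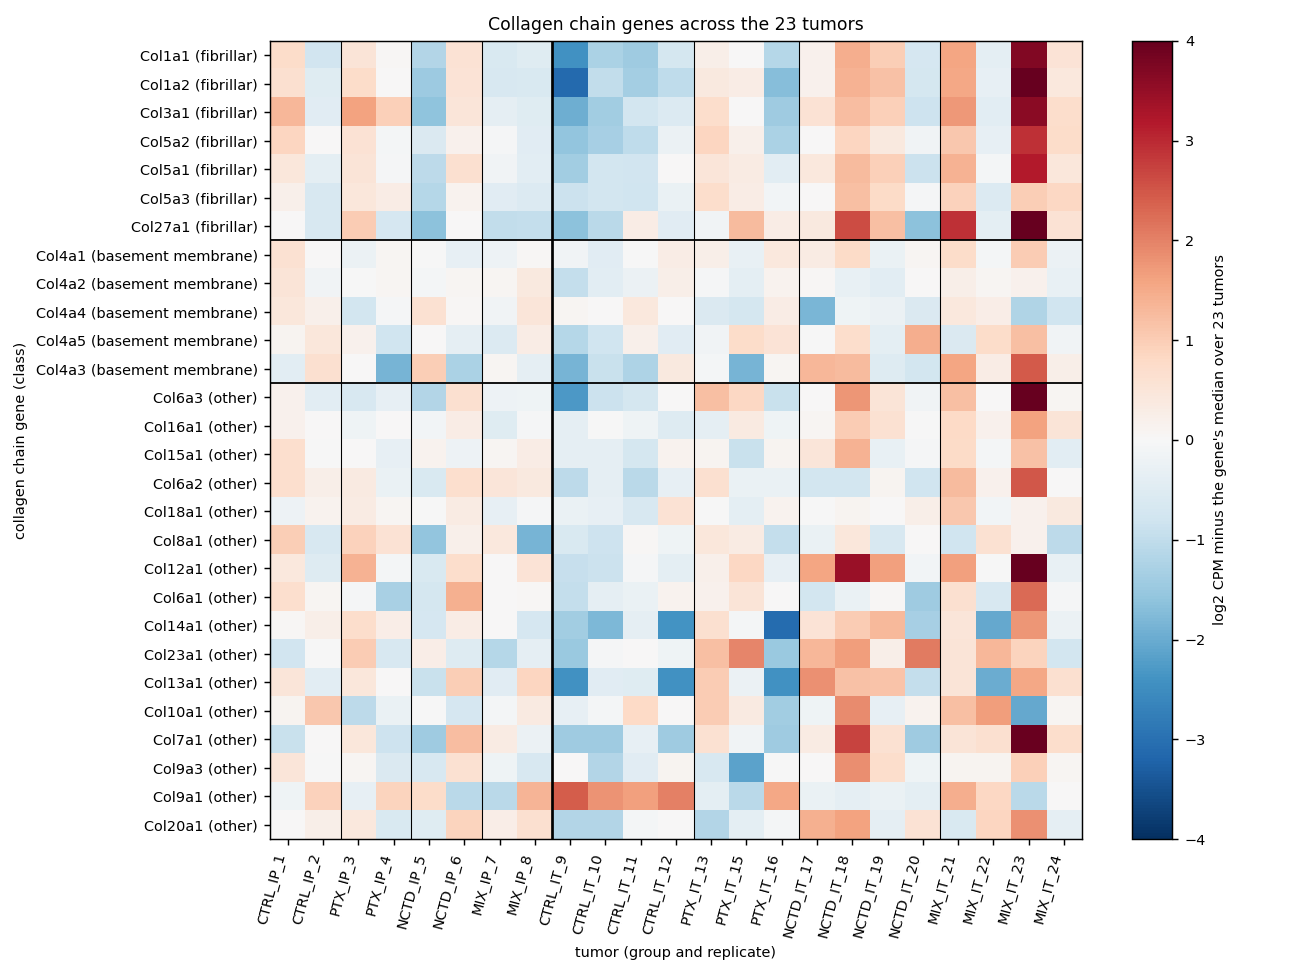
Log2 CPM minus the gene's median over the 23 tumors (color, from -4 to 4) for the 28 collagen chain genes that passed the count filter over all tumors, by class, with the tumors in columns and a thick line between IP and IT. Tumor 23 of MIX_IT is highest for 8 of the 11 most abundant members and tumor 9 of CTRL_IT is lowest for 7 of them, and the rows of Col4a1 and Col4a2 stay near their medians.

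Whether the treatments changed collagen expression was tested with edgeR's quasi-likelihood test on the counts, with 1 model for the 4 groups of a route and Benjamini-Hochberg adjustment over all genes tested. The count filter kept 26 members in the IT tumors (7 fibrillar, 5 type IV and 14 other) and 22 in the IP tumors (6, 4 and 12), and a member such as Col27a1 could pass it through a single group, so the counts below describe the list and test nothing about it. No member passed an adjusted p of 0.05 in any of the 14 comparisons made. The values below are therefore fitted log2 fold changes with unadjusted p-values, read beside the share of all tested genes that passed the same threshold. At the unadjusted threshold no such share is given for the alternative fits (DESeq2, Xist as a covariate, single tumors left out). Counts of members at that threshold in those fits have no background beside them. PTX_IT, NCTD_IT and MIX_IT were compared with the same 4 CTRL_IT tumors, so their values are not independent of each other.

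In MIX_IT vs. CTRL_IT, the fibrillar class had the largest median difference of the 3 classes. All 7 fibrillar chains tested were higher at an unadjusted p below 0.05, with a median log2 fold change of 3.24, against 1 of 5 type IV chains (Col4a3, with 0 to 6 reads in the CTRL_IT tumors; median 0.50) and 5 of 14 other chains (median 1.14). Over all 26 members, 13 were higher and 0 lower at that threshold, with a median of 1.37, where 7.88% of all 12480 genes were higher and 5.11% lower and the median gene was at 0.01. The share of all genes with an adjusted p below 0.05 was 0%. Col1a1 differed by 3.52 (SE 0.75) on the log2 scale (unadjusted p = 0.000224, edgeR adjusted p = 0.122), Col1a2 by 3.87 (SE 0.87) and Col3a1 by 3.24 (SE 0.73). Col5a2 differed by 2.58 (SE 0.60), Col5a1 by 2.48 (SE 0.62), Col6a2 by 2.05 (SE 0.50), Col6a3 by 3.499 (SE 0.92) and Col16a1 by 1.14 (SE 0.30). Col12a1, a fibril-associated chain, had a fitted value of 3.903 (SE 1.11), with 1.03, 1.10, 2.27 and 1.70 CPM in CTRL_IT and 8.35, 2.34, 80.3 and 1.83 CPM in MIX_IT, so its groups overlapped. For the members named before it, the edgeR adjusted p lay between 0.122 and 0.161. Col4a1, at 0.50 (SE 0.29) (unadjusted p = 0.1 by edgeR), and Col4a2, at 0.35 (SE 0.24), were much closer to the control. The MIX_IT tumors lay wholly above CTRL_IT for Col1a1, Col1a2, Col3a1, Col6a2 and Col16a1, 5 of 26 members, where 4.93% of all genes did so, and wholly below it for Col9a1, where 4.98% of all genes did so.

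The size of these values depended on tumor 23. Without it, the edgeR log2 difference was 2.10 for Col1a1 (adjusted p = 0.391), 2.15 for Col1a2, 1.99 for Col3a1, 1.29 for Col6a3 and 0.77 for Col16a1, and 10 members were left at an unadjusted p below 0.05, among them all 7 fibrillar chains but not Col12a1. By DESeq2 with tumor 23 included, 7 of the 17 members that received an adjusted p passed 0.05, where 2.15% of all genes did. They were Col1a1, Col1a2, Col3a1, Col5a2, Col5a3, Col6a2 and Col16a1. DESeq2 gave Col1a1 a log2 difference of 3.54 (adjusted p = 0.0144) and gave Col6a3 no p-value. With tumor 23 included and the level of Xist as a covariate, edgeR called 4 members, Col1a1, Col1a2, Col3a1 and Col5a2, where 0.609% of all genes passed. Neither the DESeq2 fit nor the fit with Xist was repeated without tumor 23.

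**Figure D4:**
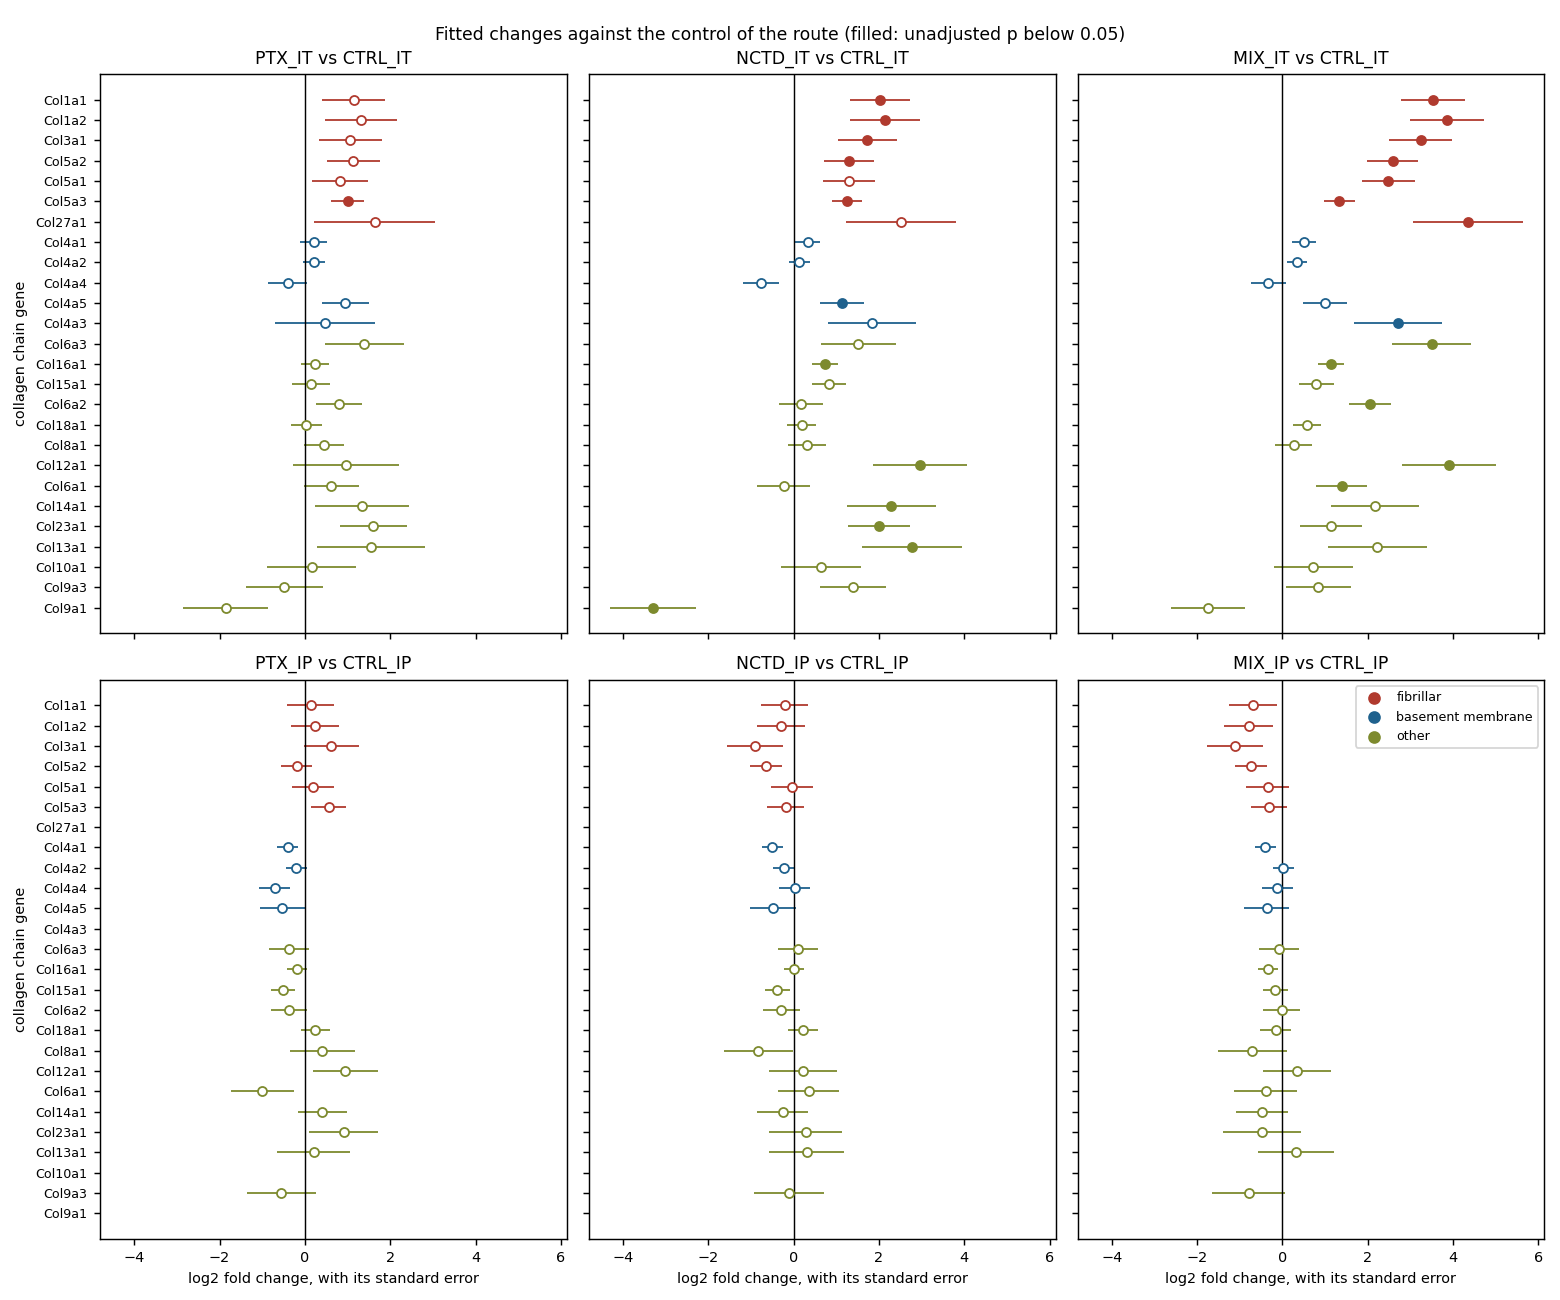
Fitted log2 fold changes (points) with standard errors (bars) of collagen chain genes in PTX, NCTD and MIX against the control of the same route, IT above and IP below, colored by class, with filled points at an unadjusted p below 0.05 and gaps where a gene did not pass the count filter. In MIX_IT all 7 fibrillar chains are filled, with Col1a1 at 3.52 and Col1a2 at 3.87, and in MIX_IP all 6 fibrillar chains lie left of 0 and none is filled.

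In NCTD_IT vs. CTRL_IT, 11 of 26 members were higher and 1 was lower at an unadjusted p below 0.05, with a median log2 fold change of 1.27. In this comparison 1.37% of all genes passed an adjusted p of 0.05, 11.6% were higher at the unadjusted threshold and 10% were lower, so the share of members that were higher was above the background and that of members lower was not. Of the fibrillar chains 5 of 7 were higher (median 1.73), of type IV 1 of 5 (Col4a5; median 0.33) and of the other chains 5 of 14, with Col9a1 lower. The member nearest to the adjusted threshold was Col5a3, at 1.25 (SE 0.36) (edgeR adjusted p = 0.0692). Col9a1 was at -3.29 (SE 1.01), a value that rests on 1 or 2 reads in each NCTD_IT tumor. Col1a1 was at 2.02 (SE 0.71), Col1a2 at 2.14 (SE 0.81) and Col3a1 at 1.73 (SE 0.70). Col23a1, a transmembrane collagen, was at 2.00 (SE 0.73), Col12a1, a fibril-associated chain of dense tissue, at 2.97 (SE 1.10), and Col16a1 at 0.74 (SE 0.30). The NCTD_IT tumors lay wholly above CTRL_IT for Col1a1, Col1a2, Col5a2, Col5a3 and Col23a1 (7.82% of all genes did so) and wholly below it for Col4a4 and Col9a1 (8.95%). The 12 members at the unadjusted threshold fell to 5 without tumor 9 of CTRL_IT, 7 without tumor 10 of CTRL_IT and 5 without tumor 18 of NCTD_IT, and Col1a1, Col5a3 and Col23a1 were among them each time.

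By DESeq2, the test the study's methods name, 12 of the 27 members with an adjusted p passed 0.05 in NCTD_IT vs. CTRL_IT, where 10.6% of all genes did. They were Col1a1, Col1a2, Col3a1, Col5a1, Col5a2, Col5a3, Col6a3, Col12a1, Col13a1, Col14a1 and Col23a1, all higher, and Col9a1, lower. DESeq2 gave Col3a1 a log2 difference of 1.74 (adjusted p = 0.0003) and Col1a1 one of 2.03 (adjusted p = 0.00576). With Xist in the edgeR model, 0 of 26 members and 0% of all genes passed, no member was left at an unadjusted p below 0.05, and Col1a2 was at -0.018, Col23a1 at -2.50 and Col9a1 at 0.28. Xist was near 0 in all CTRL_IT tumors and above 5 CPM in all NCTD_IT tumors, so that covariate and this comparison cannot be told apart.

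In PTX_IT vs. CTRL_IT, 23 of 26 members had a fitted value above 0, with a median of 0.82, where the median gene was at 0.02. Col5a3 was the single member with an unadjusted p below 0.05. Of all genes, 6.35% passed that threshold (4.18% higher and 2.16% lower) and 0% passed the adjusted one. Col5a3 was at 1.00 (SE 0.38) (unadjusted p = 0.0181, edgeR adjusted p = 0.785). Col1a1 was at 1.14 (SE 0.73) and Col1a2 at 1.32 (SE 0.84), less than 2 standard errors from 0. The PTX_IT tumors lay wholly above CTRL_IT for Col5a3 and Col6a2 (3.81% of all genes) and wholly below it for Col9a1 (4.15%). DESeq2 called 0 members at an adjusted p of 0.05, where 0.0773% of all genes passed. It had 7 members at an unadjusted p below 0.05, with no share of all genes given. With Xist in the edgeR model the median of the members was -0.01, Col5a3 was at 0.23 and 0 members passed the unadjusted threshold. Every PTX_IT tumor had more Xist than any CTRL_IT tumor, so here too the covariate and the comparison cannot be told apart. Without Xist in the model, Col5a3 also missed the unadjusted threshold when tumor 13 of PTX_IT was left out. Without tumor 11 or 12 of CTRL_IT or tumor 16 of PTX_IT, 2, 2 and 4 members passed.

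The IT drug groups were also compared with each other. In MIX_IT vs. NCTD_IT, 7 members were higher at an unadjusted p below 0.05 and none lower, where 6.02% of all genes passed (3.04% higher and 2.98% lower), and 0.00801% of all genes, a single gene and no member, passed the adjusted threshold. The type VI chains led, with Col6a2 at 1.88 (SE 0.50), Col6a1 at 1.63 (SE 0.61) and Col6a3 at 1.98 (SE 0.86), followed by Col5a2, Col3a1, Col1a2 and Col1a1 between 1.30 and 1.73. Without tumor 23, Col6a2 alone stayed higher at that threshold, at 1.11, and Col12a1 was lower, while Col1a1 was at 0.08, Col1a2 at 0.0084 and Col6a3 at -0.23. Without tumor 17, 19 or 20 of NCTD_IT, Col6a1 and Col6a2 were the 2 members left. In MIX_IT vs. PTX_IT, 10 members were higher at the unadjusted threshold and none lower, where 3.75% of all genes passed (2.07% higher and 1.68% lower), among them Col1a1 at 2.38 (SE 0.80), Col3a1 at 2.18 (SE 0.78), Col1a2 at 2.54 (SE 0.91) and Col16a1 at 0.91 (SE 0.33), and without tumor 23 none was left, with Col1a1 at 0.96. Without tumor 15 or 16 of PTX_IT, 6 and 2 members were left. In NCTD_IT vs. PTX_IT, 0 members passed the unadjusted threshold by edgeR, against 3.87% of all genes (2.15% higher and 1.72% lower). By DESeq2 no member passed the adjusted threshold in these 3 comparisons. At the unadjusted one 3, 7 and 2 members passed in the order given, with no share of all genes to read them against. With Xist in the edgeR model, 3 members were higher in MIX_IT vs. NCTD_IT, 6 in MIX_IT vs. PTX_IT and 0 in NCTD_IT vs. PTX_IT at the unadjusted threshold. No share of all genes is given for these counts either. At the adjusted threshold 0 members and 0% of all genes passed, and the medians over the members were 1.67, 1.87 and 0.20. Xist was at 0 in every MIX_IT tumor and above it in every NCTD_IT and PTX_IT tumor. The covariate and the comparisons of MIX_IT with those groups therefore cannot be told apart.

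Whether the combination departed from the sum of its parts was tested as MIX minus PTX minus NCTD plus CTRL on the log2 scale in the IT tumors. No fibrillar chain departed at an unadjusted p below 0.05, and their median departure was 0.35. Col23a1, which was highest with NCTD alone, was at -2.47 (SE 1.04) and Col9a1 at 3.41 (SE 1.44), 2 of 26 members, where 4.92% of all genes were above and 6.39% below at that threshold. At the adjusted threshold 0.0401% of all genes passed (0.016% above and 0.024% below) and no member did (edgeR adjusted p = 0.42 for Col23a1). Col1a1 departed by 0.37 (SE 1.00), less than 1 standard error from 0. Over the members the median departure was 0.17, and it was -0.76 without tumor 23 and -0.05 without tumor 12 of CTRL_IT. No member passed the unadjusted threshold without tumor 9 of CTRL_IT or tumor 13 or 15 of PTX_IT. With Xist in the model Col23a1 was at 6.91 and Col9a1 at -2.90, both turned in direction, the median was 1.65 and 1 member passed the unadjusted threshold. Xist set NCTD_IT and PTX_IT apart from CTRL_IT and MIX_IT, so the covariate and this contrast cannot be told apart.

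In the IP tumors, no member passed an unadjusted p of 0.05 in any of the comparisons with CTRL_IP by edgeR, with 2 tumors in each group. In MIX_IP vs. CTRL_IP, all 6 fibrillar chains tested had values below 0 (median -0.72, where the median gene was at -0.01). Col5a2 was at -0.74 (SE 0.37) (unadjusted p = 0.0779 by edgeR), Col3a1 at -1.11 (SE 0.66), Col1a2 at -0.79 (SE 0.57) and Col1a1 at -0.69 (SE 0.56). The MIX_IP tumors lay wholly below CTRL_IP for Col1a2, Col5a2, Col6a1, Col9a3, Col14a1 and Col16a1, 6 of 22 members, but 18.9% of all genes did so with 2 tumors against 2. In NCTD_IP vs. CTRL_IP the fibrillar median was -0.25 and Col4a1 was at -0.50 (SE 0.25), and in PTX_IP vs. CTRL_IP the fibrillar median was 0.22 and Col4a4 was at -0.71 (SE 0.37). At the unadjusted threshold 3.59% of all genes passed in NCTD_IP (1.92% higher and 1.67% lower), 5.3% in PTX_IP and 2.94% in MIX_IP, and 0% passed the adjusted one. DESeq2 called 0 members at the adjusted threshold, and it gave an adjusted p for only 4 members in NCTD_IP, 41 in PTX_IP and 35 in MIX_IP. In MIX_IP it had 2 members at an unadjusted p below 0.05, both lower, with no share of all genes given. The count of 0 by edgeR depended on single tumors. In NCTD_IP it was 7, all lower, without tumor 6 of NCTD_IP (Col1a1, Col1a2, Col3a1, Col5a1, Col5a2, Col6a2 and Col6a3), 3 lower without tumor 2 of CTRL_IP and 1 higher without tumor 5 of NCTD_IP. In MIX_IP it was 3, all lower, without tumor 2 of CTRL_IP and 1 lower without tumor 7 of MIX_IP. In PTX_IP it was 1 higher without tumor 1 and 2 lower without tumor 2 of CTRL_IP, and 2, in opposite directions, without tumor 4 of PTX_IP. These fits leave a group with 1 tumor, which is assumed to vary like the other groups.

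The effect of a treatment in IT tumors was set against its effect in IP tumors in a model of all 23 tumors, which kept 28 members. For MIX, the difference between the IT and the IP effect was positive for all 7 fibrillar chains at an unadjusted p below 0.05, with a median of 4.22, and for 10 of 28 members in all, where 4.75% of all genes were higher and 2.69% lower and 0% passed the adjusted threshold. It was 4.22 (SE 1.19) for Col1a1 (unadjusted p = 0.00199, edgeR adjusted p = 0.584), 4.67 (SE 1.36) for Col1a2, 4.36 (SE 1.23) for Col3a1 and 3.34 (SE 0.94) for Col5a2. Col16a1 was at 1.49 (SE 0.48) and the type IV chain Col4a1 at 0.92 (SE 0.46). Without tumor 23, 7 members passed the unadjusted threshold and the difference was 2.79 for Col1a1 and 2.94 for Col1a2. Without tumor 1 of CTRL_IP, 5 members passed, Col1a1, Col1a2, Col3a1, Col5a2 and Col16a1. For NCTD, 3 members passed the unadjusted threshold (5.5% of all genes were higher), and they were Col5a3 at 1.44 (SE 0.62), Col3a1 at 2.64 (SE 1.19) and Col5a2 at 1.95 (SE 0.92), and for PTX none did. Without tumor 1 of CTRL_IP, tumor 5 of NCTD_IP or tumor 18 of NCTD_IT, 0 members passed for NCTD, 1 did without tumor 9 or 10 of CTRL_IT, and 6 did without tumor 2 of CTRL_IP or tumor 6 of NCTD_IP. Between the routes, with the drug as a term, 0.366% of all genes and no member passed the adjusted threshold, and Col23a1, at 1.00 (SE 0.45), was the single member at an unadjusted p below 0.05, where 7.33% of all genes were higher. It missed that threshold without tumor 4 of PTX_IP, 5 or 6 of NCTD_IP, 7 or 8 of MIX_IP, 15 of PTX_IT, 20 of NCTD_IT or 22 of MIX_IT. DESeq2 called 0 members in each of these comparisons between routes. It gave an adjusted p to only 9 members for NCTD, 10 for MIX and 13 between routes, and to 44 for PTX. For MIX, 11 members had an unadjusted p below 0.05, with no share of all genes given, so not all of them received an adjusted p.

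The enzymes and partners that act on collagen chains were examined in 7 fixed lists, and few of their genes passed a test. In NCTD_IT vs. CTRL_IT, 1 of 7 receptors tested rose, Ddr1, a receptor kinase for collagen, at 1.05 (SE 0.25) (edgeR adjusted p = 0.0482). Of 5 degrading enzymes tested, the gelatinase Mmp9 rose and the membrane-bound collagenase Mmp14 fell. Mmp14 was at 385, 324, 351 and 267 CPM in CTRL_IT and at 180.5, 189, 123 and 210.4 CPM in NCTD_IT, a log2 change of -0.92 (SE 0.21) (edgeR adjusted p = 0.0482). Mmp9 was at or below 0.756 CPM in CTRL_IT and between 5.87 and 33.2 CPM in NCTD_IT (edgeR adjusted p = 0.028), and no fold is given because its CTRL_IT tumors lie at or below the floor. The other lists held no gene past the adjusted threshold there, with P3h3 and Plod1 the nearest of 10 hydroxylation genes, Sec23a and Colgalt1 of 7 folding, glycosylation and export genes, Pcolce and Adamts2 of 4 propeptide-processing genes, Loxl2 and Loxl1 of 4 crosslinking genes and Lamc1 and Nid1 of 8 basement membrane partners. Lamc1, a laminin chain, was at 0.70 (SE 0.18) (edgeR adjusted p = 0.0565). Every call at the adjusted threshold in this comparison rested on single tumors, since no gene of the table passed when tumor 11 or 12 of CTRL_IT or tumor 18 of NCTD_IT was left out.

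In MIX_IT vs. CTRL_IT no gene of these lists passed the adjusted threshold by edgeR. At the unadjusted one, 3 of 4 propeptide-processing genes, 3 of 5 degrading enzymes and 3 of 8 basement membrane partners were higher, against 1 of 10 hydroxylation genes and 1 of 7 folding, glycosylation and export genes, where 7.88% of all genes were higher and 5.11% lower. Of 4 crosslinking genes 2 were higher and 1 lower, and of 7 receptors 2 were higher. Adamts2, which removes the amino-terminal propeptide of fibrillar chains, was at 1.35 (SE 0.51) and Lox, a lysyl oxidase that crosslinks fibrils, at 1.65 (SE 0.62). Mrc2, an endocytic collagen receptor, was at 3.70 (SE 0.85) and Mmp13, a collagenase, at 2.52 (SE 0.71). Tumor 23 held the most reads of both. Mrc2 had 26, 28, 197 and 17 reads in MIX_IT, against 6, 4, 5 and 3 in CTRL_IT. Mmp13 had 210, 57, 714 and 116 reads in MIX_IT, against 13, 68, 46 and 45 in CTRL_IT, so its groups overlapped. Nid1, which links laminin to type IV collagen, was at 1.12 (SE 0.33). No fit without tumor 23 is given for the genes of these lists. Serpinh1, the chaperone HSP47 that binds folded procollagen, was between 306 and 485 CPM in CTRL_IT and between 310.5 and 419 CPM in MIX_IT, at -0.12 (SE 0.18), with overlapping tumors.

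Several markers of fibroblasts and of endothelium were higher in the same IT groups, and those of some other cell types also moved with them. The summed level of 10 fibroblast markers that are not collagens was 116.6 to 181.8 CPM in CTRL_IT, 152.6 to 286.8 CPM in PTX_IT, 224.3 to 398.8 CPM in NCTD_IT and 281.1 to 649.1 CPM in MIX_IT, and no marker was at 0 in any group. In CTRL_IT most of this sum was Pdpn, with 230, 458, 378 and 219 reads, and Fbln1, with 173, 160, 164 and 144. Fbln1 had 306, 102, 133 and 95 reads in NCTD_IT and 240, 300, 117 and 315 in MIX_IT, so its tumors overlapped CTRL_IT. The sum therefore does not weigh the 10 markers alike. Of the 8 fibroblast markers tested in the IT tumors, 5 were higher at an unadjusted p below 0.05 in NCTD_IT, where 11.6% of all genes were. In MIX_IT 5 were higher, where 7.88% of all genes were. Among them was Dcn, a fibril-binding proteoglycan, at 2.66 (SE 0.84) in NCTD_IT and 3.53 (SE 0.85) in MIX_IT. In the IP tumors the sum ran from 237.4 to 333.5 CPM in CTRL_IP, 243.3 to 355.9 CPM in PTX_IP, 196.6 to 318.7 CPM in NCTD_IP and 227.2 to 249.7 CPM in MIX_IP. The summed level of 8 endothelial markers was 47.1 to 73.8 CPM in CTRL_IT, 67.6 to 113.4 CPM in PTX_IT, 96.1 to 194.1 CPM in NCTD_IT and 74.6 to 265.1 CPM in MIX_IT, with 6 of 7 tested higher at the unadjusted threshold in NCTD_IT and 4 of 7 in MIX_IT, against the same 11.6% and 7.88% of all genes. Emcn, an endothelial surface gene, rose in NCTD_IT by 1.29 (SE 0.29) (edgeR adjusted p = 0.0414), a call that rested on single tumors as above. No endothelial marker was at 0 in an IT group, and Tek was at 0 in MIX_IP. The melanocytic sum ran from 25414 to 31334 CPM in CTRL_IT and from 14802 to 28092 CPM in MIX_IT. The adipocyte sum was 68.6 to 85.2 CPM in CTRL_IT, 85.5 to 170.2 CPM in PTX_IT, 135.5 to 291.9 CPM in NCTD_IT and 76.1 to 521.4 CPM in MIX_IT, with 1 of its 7 genes tested. Nearly all of this sum was Fabp4, with 301 to 327 reads in the CTRL_IT tumors and 456 to 2143 in the MIX_IT tumors. Adipoq, Cidec, Lep and Plin4 were at 0 in CTRL_IT, so the sum describes 1 gene rather than the list. The macrophage sum was 87.0 to 603.4 CPM in CTRL_IT, 93.5 to 1171 CPM in PTX_IT, 356.5 to 1222 CPM in NCTD_IT and 213.4 to 633.5 CPM in MIX_IT, and 3, 3 and 1 of 8 genes were higher at the unadjusted threshold in PTX_IT, NCTD_IT and MIX_IT. The mural sum, of vessel-wrapping cells, was 47.9 to 97.6 CPM in CTRL_IT and 60.6 to 209.7 CPM in MIX_IT, with 1 of 7 genes higher there. The erythroid sum was 1238 to 6944 CPM in CTRL_IT and 257.8 to 1360 CPM in NCTD_IT, with 3 of 4 genes lower there, where 10% of all genes were. The T and NK cell sum was 2.06 to 111.5 CPM in CTRL_IT and 24.2 to 276.6 CPM in NCTD_IT, with 2 of 7 genes higher there. The skeletal muscle and keratinocyte sums reached at most 260.8 and 19.7 CPM in the IT tumors, and none of their genes tested passed the unadjusted threshold against CTRL_IT. The summed levels of the macrophage, mural, erythroid, T and NK cell, skeletal muscle and keratinocyte lists overlapped between CTRL_IT and each treated IT group. The part of these cell types in the collagen values was not tested.

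Genes were then compared across tumors, as 10 pairs on the log2 CPM scale with permutation tests. The pairs within types I, IV, V and VI are chains that build the same molecule, and the other pairs are not. Col1a1 and Col1a2 had a Pearson r of 0.99 and a Spearman rho of 0.97 over 23 tumors (permutation p = 1e-05 for both, the smallest that 100000 permutations can give, and 2.5e-05 after adjustment over the 10 pairs). Without tumors 9 and 23, the pair farthest from the median, r was 0.98. Within the routes r was 0.99 over 15 IT tumors and 0.97 over 8 IP tumors (exact permutation p = 0.000769, adjusted 0.00769). Col1a1 and Col3a1 had an r of 0.96 and a rho of 0.93 (adjusted permutation p = 2.5e-05 for both), 0.92 without the 2 farthest tumors, 0.98 in IT and 0.92 in IP. Col5a1 and Col5a2 had an r of 0.92 and a rho of 0.89 (adjusted permutation p = 2.5e-05 for both) and Col6a1 and Col6a2 an r of 0.81 and a rho of 0.76 (adjusted permutation p = 4e-05 and 0.00016). Without the 2 farthest tumors r was 0.82 for the type V pair and 0.66 for the type VI pair. In IT it was 0.94 and 0.85, and in IP 0.84 and 0.83.

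**Figure D5:**
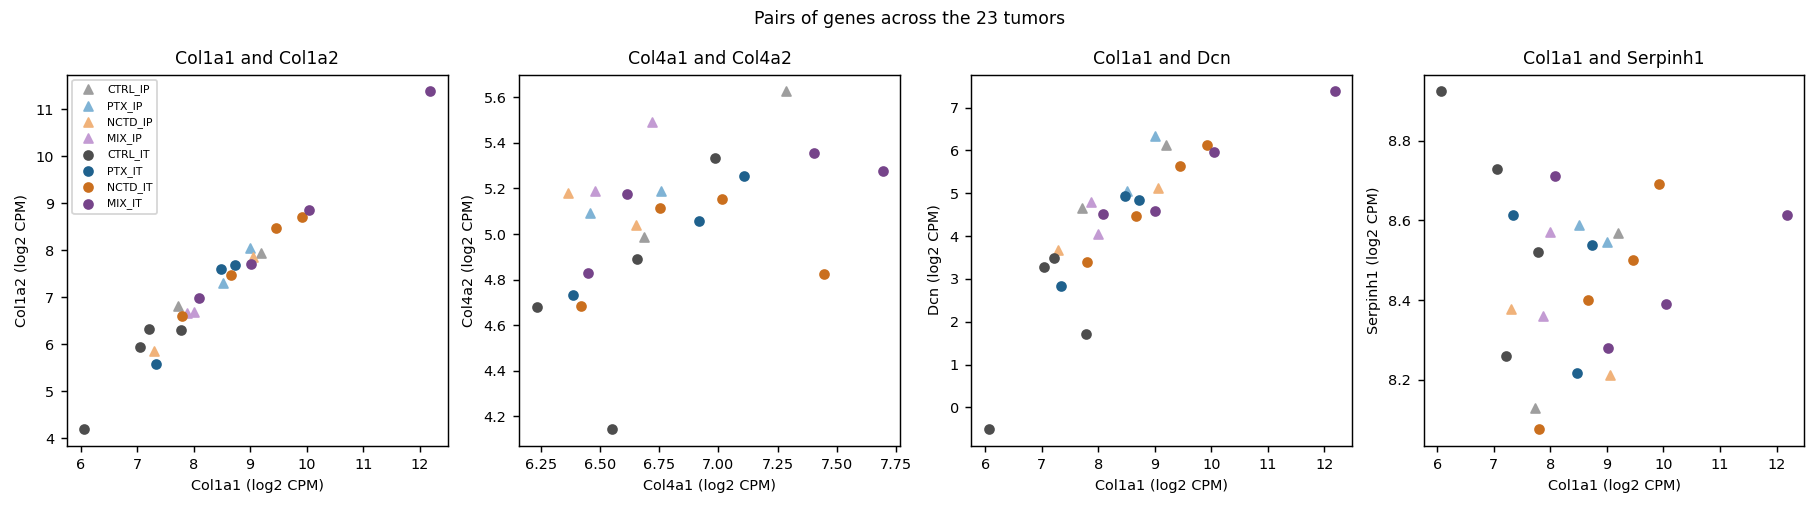
Log2 CPM of pairs of genes in the 23 tumors, colored by group, with circles for IT and triangles for IP. Col1a1 and Col1a2 lie along 1 line (r = 0.99), Col4a1 and Col4a2 scatter (r = 0.48), Col1a1 and Dcn rise together (r = 0.85), and Col1a1 and Serpinh1 show no relation (r = -0.04).

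Col4a1 and Col4a2, which share a start region, had a lower r than the pairs above. Their r was 0.48 and their rho 0.58 (adjusted permutation p = 0.0261 and 0.008). Without the 2 farthest tumors r was 0.62, and it was 0.61 in IT and 0.69 in IP (exact permutation p = 0.0625 in IP). Col4a1 and Col4a2 spread only 2.76- and 2.84-fold between tumors, against 70.2- and 148-fold for Col1a1 and Col1a2. The r of these pairs therefore cannot be compared directly. Col1a1 and Col4a1 had an r of 0.58 but a rho of 0.30 (adjusted permutation p = 0.00536 and 0.203), and r was 0.37 without tumors 9 and 23, so the relation rested on those tumors. It was 0.64 in IT and 0.19 in IP. Col4a1 and the endothelial cadherin gene Cdh5 had an r of 0.65 and a rho of 0.47 (adjusted permutation p = 0.00127 and 0.0361), 0.41 without tumors 18 and 23, 0.71 in IT and 0.36 in IP.

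Of the remaining pairs, Col1a1 and Dcn had an r of 0.85 and a rho of 0.88 (adjusted permutation p = 2.5e-05 for both), 0.81 without the 2 farthest tumors, 0.90 in IT and 0.87 in IP. Col1a1 and Serpinh1 had an r of -0.04 and a rho of -0.02 (permutation p = 0.869 and 0.916), with -0.12 in IT and 0.33 in IP. Col1a1 and the melanocyte gene Mlana had an r of -0.29 and a rho of -0.06 (permutation p = 0.177 and 0.784), -0.39 in IT and 0.39 in IP. The pairs share the libraries of the same tumors, and their levels are shares of those libraries. Tumors were permuted without regard to their group, so group differences shared by both genes count toward each relation and its permutation p.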

How the data were processed

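Bulk RNA from 23 tumors was sequenced with a 3′ mRNA library kit. The deposited file holds raw whole-number counts per gene and sample, made by the authors with Trimmomatic, FastQC and STAR 2.7.11b on GRCm39, as the submitters' processing notes list; strand, multimapping and molecular identifiers are not given in the sources used here. Here the counts were scaled with TMM in edgeR 4.0.16 (R 4.3.3); levels are CPM with TMM factors over all 23 tumors, and log2 CPM used a prior count of 2. Genes passing filterByExpr (minimum count 10, minimum total 15) were tested with edgeR's quasi-likelihood test, 4 groups of a route in a model, or all 23 tumors for contrasts between routes, with Benjamini-Hochberg adjustment and a threshold of 0.05. DESeq2 1.42.0, other scaling, no filter, protein-coding genes alone, Xist as covariate and leaving out single tumors were alternatives, and the test was checked on simulated data.

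Fold changes are relative to all RNA in a tumor, so a collagen level is a share. The labels do not say that each tumor came from its own mouse, so p-values measure only the spread between these samples. Mean CPM of at least 20 set which members are given in full, and in each comparison the members with an unadjusted p below 0.05 were named, at most the 8 with the smallest p; members beyond these were named for lack of overlap between groups or from the tables after their values were seen. From the other lists, genes past the adjusted threshold or else the 2 with the smallest p were named, with Serpinh1 kept from the fixed pairs. The members and lists were chosen with earlier results of these data known. Floors of 3 counts cover counting error only.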

Additional observations from a re-analysis of the deposited data

Results flagged for a closer look

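Among the 11 most abundant members, 33 groups of 4 tumors were searched for a tumor whose gap to the nearest other exceeded Dixon's 95% critical value, and 4 were found. That value assumes independent, normally distributed samples. The search used untransformed CPM of genes that move together in the same tumors, so the number expected by chance is not known. Col1a2 was at 2659 CPM in tumor 23 of MIX_IT, against 464 CPM in the next highest, and Col6a3 was at 780.4 CPM there against 80.7 CPM. Col5a3 was at 15.6 CPM in tumor 12 of CTRL_IT, against 11.2 CPM in the next highest, and at 12.8 CPM in tumor 22 of MIX_IT, against 34.1 CPM in the next lowest. No member's treatment effect differed between the routes at an adjusted p below 0.05.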

How the results depend on the processing

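No paired analysis was possible because the groups share no replicate numbers. The count of members past an edgeR adjusted p of 0.05 was 0 in all 14 comparisons and stayed 0 (lowest 0, highest 0) when any single tumor was left out, with DESeq2's size factors in edgeR and in the comparisons fitted to protein-coding genes alone. With DESeq2 it was 12 in NCTD_IT (10.6% of all genes) and 7 in MIX_IT (2.15%) vs. CTRL_IT, and 0 elsewhere among the members that received an adjusted p. Its median gene in NCTD_IT vs. CTRL_IT lay at 0.14, against 0.03 in edgeR. With no low-count filter it was 13 in NCTD_IT (4.43% of all genes), 5 in PTX_IT (0.826%) and 13 in MIX_IT (1.35%) vs. CTRL_IT. Between drug groups it was 1 in NCTD_IT vs. PTX_IT (0.253%), 7 in MIX_IT vs. NCTD_IT (0.707%) and 7 in MIX_IT vs. PTX_IT (0.406%). In MIX_IP vs. CTRL_IP it was 1 (0.216%), and in the route differences 5 for NCTD (0.974%), 1 for PTX (0.378%) and 8 for MIX (0.478%). In the departure from additivity (1.65%) and between routes (1.38%) it was 1 of 44 members, near the share of all genes. With all 23 tumors in the model the count was 1 in NCTD_IT vs. CTRL_IT (5.8% of all genes), and with Xist as a covariate 4 in MIX_IT vs. CTRL_IT (0.609%). The cause was not tested. The 46 fold changes named were picked by their unadjusted p in these same data, and the alternatives refit the same tumors. Keeping their direction was therefore likely in advance and does not test them. Of 661 values under alternatives, 655 kept their direction and 51 passed the adjusted threshold. The exceptions were, with Xist in NCTD_IT vs. CTRL_IT, Col9a1 at 0.28, Col23a1 at -2.50 and Col1a2 at -0.018, with Xist in the departure from additivity, Col23a1 at 6.91 and Col9a1 at -2.90, and Col6a3 in MIX_IT vs. NCTD_IT, which ran from -0.23 without tumor 23 to 2.60 without tumor 18. With a prior count of 0.5 in place of 2 the r of each of the 10 pairs kept its sign and its side of the threshold. The leave-one-out fits of the route, additivity and route-difference comparisons, the fits with Xist of the contrasts between drugs and of additivity, and the counts of groups without overlap were added after seeing the data. At these depths a member below about 1 CPM rests on a few reads, and the fitted values of Col9a1, Col27a1 and Col4a3 share that limit.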
